A study of Homo sapiens with 31 samples.

Results

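Class I major histocompatibility (MHC) molecules carry peptides from inside the cell to its surface, where cytotoxic T cells read them. Beta-2-microglobulin (B2M) is the light chain without which the heavy chains do not reach the surface stably, NLRC5 is the transactivator that switches on the class I genes, and the aminopeptidases ERAP1 and ERAP2 trim peptides in the endoplasmic reticulum to the length that fits the groove. Interferons raise the expression of this machinery, and tumour cells often express less of it. Described here are 4 genes, B2M, NLRC5, ERAP1 and ERAP2, out of 17314 genes measured. They were chosen as the members of a list of 9 class I antigen processing genes for which the platform annotation names a probe set alone, and each had 1 such probe set. The other 5 members, TAP1, TAP2, TAPBP, PSMB8 and PSMB9, had no named probe set and were not analysed here.

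The RNA came from xenograft tumours of PC3, an established prostate carcinoma line of human origin, profiled on 31 arrays in 8 groups. The lines were unpassaged PC3 (wt) and A3, D3 and D4, each of them 1 clone re-isolated after growth in an animal. The labels give wt and A3 as sensitive to cyclophosphamide (CPA), an alkylating prodrug activated in the liver, and D3 and D4 as resistant. Tumours of every line were grown to a mean volume of 30 mm3, and CPA-treated animals then received 120 mg/kg by intraperitoneal injection while controls did not. There were 4 arrays in each group except untreated A3, which had 3. Levels are log2 values made with RMA, a method that subtracts background, quantile-normalises the arrays and gives 1 value per probe set. A difference of 1 on this scale is a 2-fold change. The series asked how tumours become resistant to metronomic CPA, that is, to low doses given often.

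The deposited values ran from 1.27 to 14.1. Over all arrays the 5 carcinoma epithelial markers averaged 9.92 (KRT8), 10.00 (KRT18), 10.4 (KRT19), 8.59 (EPCAM) and 6.27 (CDH1). The 9 leukocyte markers measured averaged from 3.18 (PTPRC) to 8.66 (CD68), with NKG7 at 6.93 and CD8A at 6.09. Levels of different probe sets cannot be compared, so these values do not give the share of any cell type. RNA of host cells can bind such arrays, and in bulk tumours fewer cells of a type and less RNA per cell cannot be told apart. Replicate arrays correlated at 0.985 to 0.997 across genes.

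Interferons act on promoters mainly through the interferon-stimulated response element, whose core was searched as GAAA, any 2 bases and GAAA again, and the gamma-activated site, searched as TTCNNNGAA, both on either strand. RefSeq promoter windows (GRCh38.p14, 250 bases before the transcription start and 50 after it) were found for B2M, ERAP1 and ERAP2, 5 windows in all. The response element core was present in 3 of the 5, with 1 for each of these 3 genes, and in 3.57% of the 35116 windows of that length. The gamma-activated site was in 0 of the 5 and in 7.66% of all windows. The stretches with the matches are shown, with the matched letters in capitals. B2M lies at chr15:44711347-44711417 on the plus strand, and its 2 matches overlap each other. ERAP1 lies at chr5:96807931-96808003 on the minus strand, with the match just after the start. ERAP2 lies at chr5:96876425-96876495 on the plus strand, before the later of its start sites. ERAP1 and ERAP2 are neighbouring genes. A match is only a match of letters and was not tested for binding.
B2M: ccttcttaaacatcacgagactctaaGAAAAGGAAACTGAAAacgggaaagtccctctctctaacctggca
ERAP1: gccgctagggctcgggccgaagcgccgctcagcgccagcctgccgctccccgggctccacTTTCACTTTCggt
ERAP2: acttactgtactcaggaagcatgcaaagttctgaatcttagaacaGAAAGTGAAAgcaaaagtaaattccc

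All 4 genes were lower in the passaged clones than in wt, with and without CPA, whether the clone was labelled sensitive or resistant. The light chain B2M was lower by 1.53-fold to 1.73-fold (-0.61 to -0.79 on the log2 scale). It had the largest difference of the 4 in each comparison with wt except treated D4, where NLRC5 differed by -0.64 and B2M by -0.61. Of the 24 tests of a member against wt (4 genes in 6 comparisons), 23 were called at an adjusted p under 0.05, and all 24 differences were negative. In the same 6 comparisons between 7.59% and 10.9% of all genes were called lower. No member was called in the 5 comparisons between clones that were run (treated D4 was not set against treated D3) or for CPA within any line. B2M and NLRC5 were lower in all 23 clone arrays than in any of the 8 wt arrays, a separation in this direction that 2.28% of all genes showed.

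**Figure D1:**
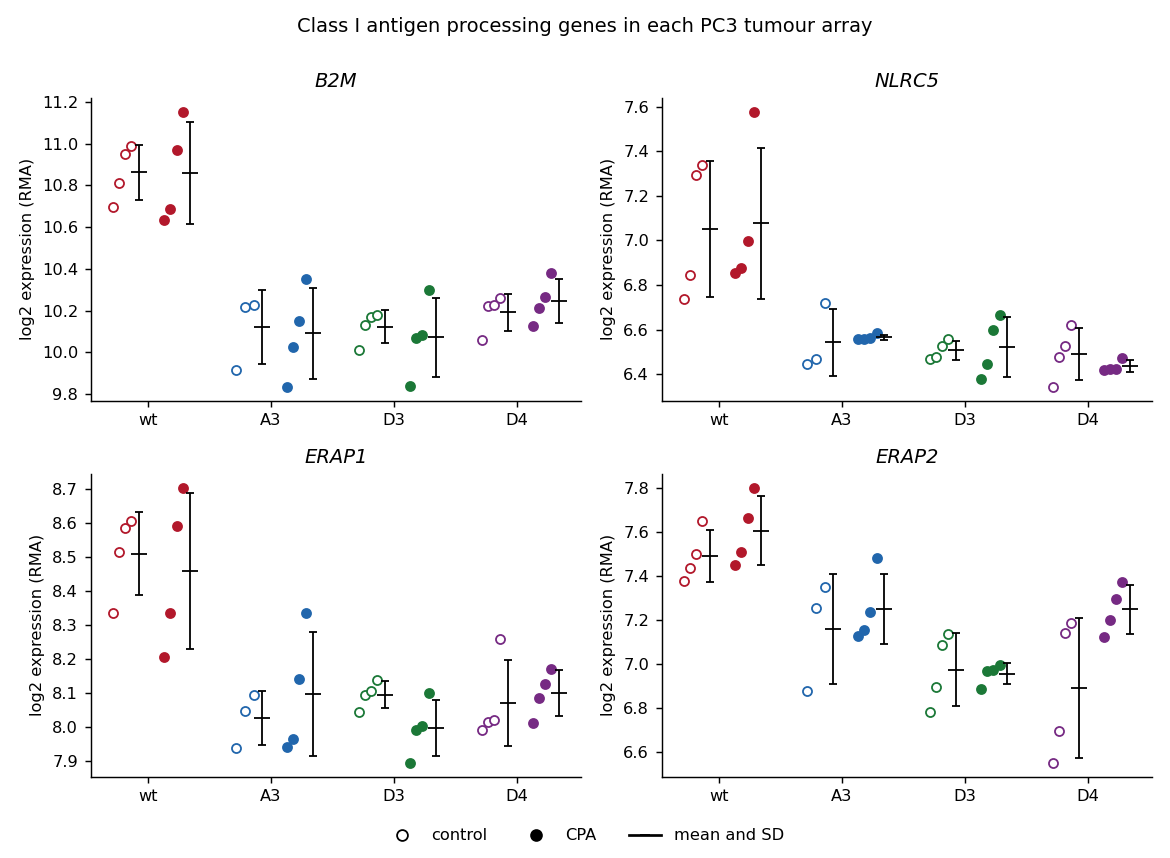
Log2 expression of B2M, NLRC5, ERAP1 and ERAP2 (vertical axes, RMA) in every array of wt, A3, D3 and D4 tumours. Open circles are control arrays, filled circles CPA-treated arrays, and bars the group mean and SD. The wt arrays of B2M start at 10.63, above the highest clone array at 10.38, whereas A3 arrays of ERAP1 and ERAP2 and a D4 array of ERAP1 reach into the wt range.

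B2M, the light chain shared by all class I molecules, had levels of 10.81, 10.95, 10.99 and 10.70 in the untreated wt arrays. The untreated A3 arrays lay at 10.22, 9.92 and 10.23, the D3 arrays at 10.01, 10.17, 10.13 and 10.18, and the D4 arrays at 10.06, 10.26, 10.22 and 10.22. Every untreated clone array was thus below every untreated wt array, and the 3 clones overlapped each other. The difference from wt was -0.74 ± 0.12 (SE) in A3, -0.74 ± 0.11 in D3 and -0.67 ± 0.11 in D4, with adjusted p-values of 4.5e-05, 1.8e-05 and 5.4e-05 (limma). The background was 18.5%, 18.1% and 20.1% of all genes called in either direction in these comparisons, and 8.36%, 8.4% and 10.9% called lower. In the untreated groups 10.3%, 10.2% and 9.63% of all genes had every clone array below every wt array.

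With CPA the B2M levels were 10.63, 10.97, 11.15 and 10.69 in wt and 10.15, 10.35, 10.03 and 9.84 in A3. In D3 they were 10.08, 10.30, 10.07 and 9.84, and in D4 10.21, 10.13, 10.27 and 10.38. The treated wt arrays spread over a wider range than the untreated ones but still lay apart from all treated clones. Differences from treated wt were -0.77 in A3, -0.79 in D3 and -0.61 in D4 (SE 0.11 each), with adjusted p-values of 9.8e-06, 9.7e-06 and 0.00022. Here 16.3%, 16.4% and 15.1% of all genes were called in either direction, and 9.6%, 10.1% and 7.59% lower, while 10.8%, 14.2% and 10.3% had arrays entirely below those of wt. In the order of the 8 group means wt stood first and treated D4 (10.25 ± 0.11 SD, n = 4) came next. Below the step of 0.61 from treated wt to treated D4, no neighbouring groups differed by more than the larger of their SDs.

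NLRC5, the transactivator of class I genes, averaged 6.65 over all arrays, above the means of 41.3% of genes. How much of that signal is background was not tested. Its untreated wt levels were 7.29, 6.85, 7.34 and 6.74. In untreated A3 they were 6.45, 6.72 and 6.47, in D3 6.47, 6.53, 6.56 and 6.48, and in D4 6.62, 6.48, 6.53 and 6.34. The wt arrays fell into 2 high and 2 low ones, and the lowest of them was only just above the highest A3 array. NLRC5 was lower than wt by 0.51 in A3 (-0.51 ± 0.13 SE, adjusted p 0.0064), and the differences were -0.55 ± 0.12 (SE) in D3 and -0.56 ± 0.12 (SE) in D4, with adjusted p-values of 0.0018 and 0.0012 (limma). When untreated A3 and wt were fitted alone, the difference did not pass (adjusted p 0.06).

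With CPA, NLRC5 stood at 6.85, 7.0, 7.58 and 6.88 in wt and between 6.38 and 6.67 in all 12 treated clone arrays. The differences were -0.51 ± 0.12 (SE) in A3, -0.55 ± 0.12 in D3 and -0.64 ± 0.12 in D4 (adjusted p 0.0037, 0.0022 and 0.00039). The group means of the clones ran from 6.44 ± 0.03 (SD, n = 4) in treated D4 to 6.57 ± 0.01 (SD, n = 4) in treated A3, and no neighbours among these 6 differed by more than the larger of their SDs. NLRC5 varied more among wt arrays than 98.9% of genes did. Its SD within the wt groups was 0.32, against a median of 0.14 over all genes, while in D4 it was 0.08. The SEs of NLRC5 rest on 1 spread shared by all 8 groups, where its within-group SD was 0.18. That is smaller than the SD in wt, so the SEs and limma p-values of NLRC5 against wt may be too small.

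ERAP1, which trims precursors of class I peptides, measured 8.59, 8.61, 8.51 and 8.34 in untreated wt. In the clones without CPA it lay at 8.09, 7.94 and 8.05 in A3, at 8.04, 8.10, 8.10 and 8.14 in D3, and at 7.99, 8.26, 8.02 and 8.02 in D4. No untreated clone array reached the wt arrays. The differences from wt were -0.48 ± 0.10 (SE) in A3, -0.42 ± 0.09 in D3 and -0.44 ± 0.09 in D4 (adjusted p 0.00093, 0.002 and 0.001). Under CPA the wt arrays at 8.21, 8.59, 8.70 and 8.34 met the highest A3 array at 8.34, so these groups overlapped, whereas treated D3 and D4 did not reach wt. Treated differences were -0.36 ± 0.09 (SE) in A3, -0.46 ± 0.09 in D3 and -0.36 ± 0.09 in D4 (adjusted p 0.0071, 0.00097 and 0.0081). Without wt CPA replicate 3, the wt array with the highest ERAP1, those of A3 (-0.28, adjusted p 0.055) and D4 (-0.28, adjusted p 0.062) did not pass, and that of A3 missed when its 2 groups were fitted alone (adjusted p 0.05005). In the order of group means the step from treated wt to treated D4, 0.36, exceeded the larger SD, and no step among the clones did.

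ERAP2, the partner aminopeptidase with other residue preferences, showed the most variation between clones. Untreated wt arrays measured 7.44, 7.65, 7.50 and 7.38. Untreated A3 arrays lay at 7.35, 6.88 and 7.25, D3 arrays at 6.78, 7.14, 6.90 and 7.09, and D4 arrays at 6.55, 7.14, 6.69 and 7.19. The highest A3 array was just below the lowest wt array, and the D4 arrays fell into 2 low and 2 higher ones. In D3 the difference from wt was -0.52 ± 0.12 (SE, adjusted p 0.0026) and in D4 it was -0.60 ± 0.12 (SE, adjusted p 0.00053). The A3 difference of -0.33 ± 0.13 (SE) was not called (adjusted p 0.078). It was called without A3 control replicate 1 (-0.43, adjusted p 0.045). The 2 low D4 arrays, control replicates 1 and 4, and the lowest A3 array, control replicate 2, were also among the 4 arrays that deviated most from their own group over all genes. Without those 4 arrays the D4 difference was -0.33 (adjusted p 0.049) and the A3 difference -0.19 (adjusted p 0.28).

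In CPA-treated tumours ERAP2 was at 7.45, 7.80, 7.67 and 7.51 in wt, and at 7.13, 7.24, 7.16 and 7.48 in A3. Treated D3 arrays were close together at 6.97, 7.0, 6.97 and 6.89, and treated D4 arrays were at 7.20, 7.37, 7.12 and 7.30. Against treated wt, D3 was lower by 0.65 (-0.65 ± 0.12 SE, adjusted p 0.00035), with no overlap. The differences in A3 (-0.36 ± 0.12 SE, adjusted p 0.042) and D4 (-0.36 ± 0.12 SE, adjusted p 0.042) passed only narrowly. Each was called under 9 of 17 alternatives, and it missed the threshold after median centring (-0.34, adjusted p 0.062 for A3, and -0.33, adjusted p 0.076 for D4). It also ended without wt CPA replicate 2 (-0.29 for both, adjusted p 0.16 for A3 and 0.15 for D4) or wt CPA replicate 3 (-0.34 for both, adjusted p 0.10 and 0.11). For A3 the call ended without CPA replicate 1, 2 or 3 of A3 (-0.32, -0.35 and -0.33, adjusted p 0.13, 0.083 and 0.11). For D4 it ended without CPA replicate 1, 4 or 5 of D4 (-0.34, -0.32 and -0.38, adjusted p 0.099, 0.11 and 0.069). Among the 8 group means only the step from untreated wt to treated A3, 0.24, exceeded the larger SD of the groups beside it.

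**Figure D2:**
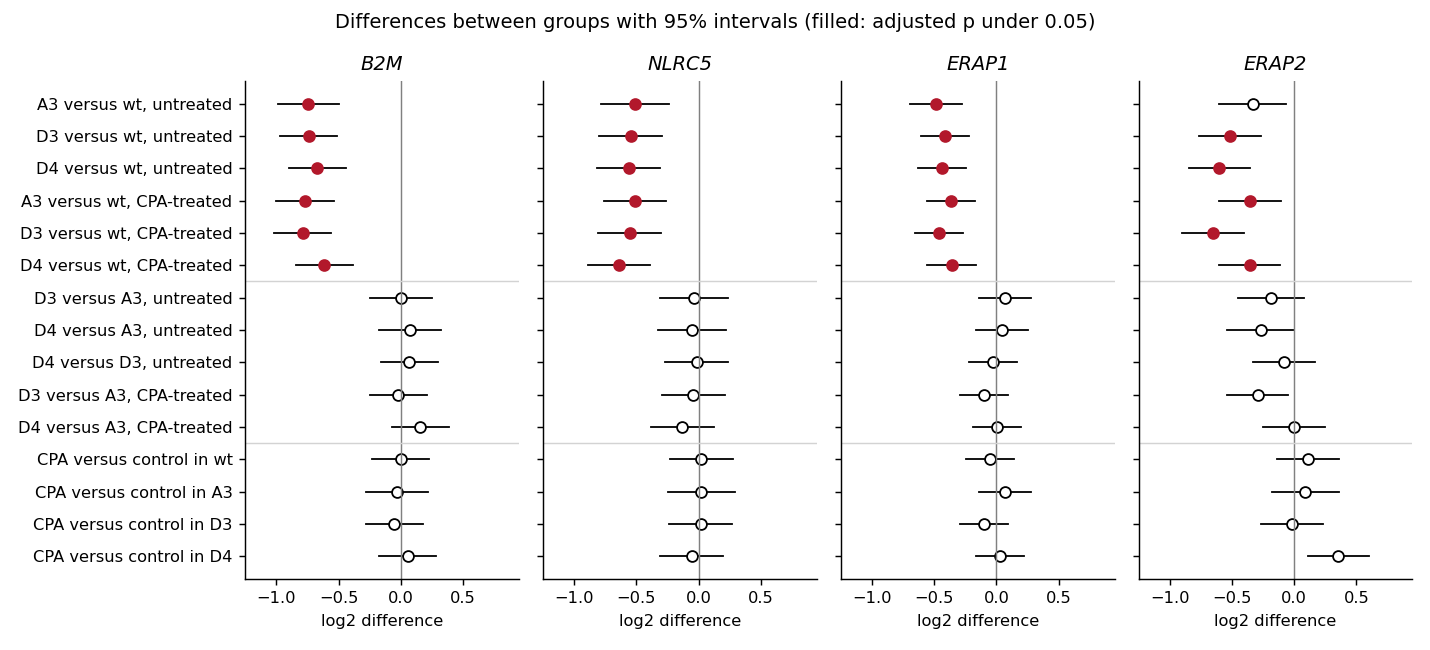
Log2 differences (horizontal axes) of the 4 genes in 15 comparisons, with 95% confidence intervals from the limma fit. Filled points passed an adjusted p of 0.05, and those are the comparisons with wt, ERAP2 in untreated A3 excepted, while the intervals between clones and for CPA span 0 for B2M, NLRC5 and ERAP1.

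Resistant and sensitive clones were then set side by side, since the labels give A3, D3 and D4 all as passaged in an animal. None of the 4 genes was called for D3 or D4 against A3, with or without CPA, or for D4 against D3 without CPA (limma). At an unadjusted p under 0.05, ERAP2 alone was lower, in untreated D4 (-0.27 ± 0.13 SE, adjusted p 0.33) and in treated D3 (-0.29 ± 0.12 SE, adjusted p 0.21), both against A3. In these comparisons 2.27% (D3) and 3.77% (D4) of all genes were called without CPA and 4.55% and 12.4% with it, and 0.323% between untreated D4 and D3. At an unadjusted p under 0.05 the shares were 11.5%, 15.1%, 15.4%, 28.7% and 9.67% in the same order. The treated D3 arrays of ERAP2 lay below all treated A3 arrays, whereas untreated D4 and A3 overlapped. For NLRC5 the treated D4 arrays also lay below all treated A3 arrays (-0.13 ± 0.12 SE, limma adjusted p 0.49). The share of all genes separated in this way between clones was not computed. The SE of that NLRC5 difference rests on the spread shared by all groups, which includes the wide wt arrays. The SDs of NLRC5 were 0.03 in treated D4 and 0.01 in treated A3, so its p-value does not measure the spread of these arrays alone. The 95% interval of the B2M difference from A3 without CPA ran from -0.24 to 0.25 in D3 and from -0.18 to 0.32 in D4. For NLRC5 it ran from -0.31 to 0.24 and from -0.32 to 0.22, and for ERAP1 from -0.14 to 0.28 and from -0.16 to 0.25. For ERAP2 it ran from -0.45 to 0.08 in D3 and from -0.54 to -0.0001 in D4. Both ERAP2 intervals include -0.33, the difference of untreated A3 from wt. For B2M both intervals exclude a difference as large as the step to wt.

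CPA did not move any of the 4 genes past the threshold in any line (limma). For B2M the difference between CPA and control was -0.00 ± 0.11 (SE) for wt tumours, -0.03 ± 0.12 for A3, -0.05 ± 0.11 for D3 and 0.05 ± 0.11 for D4. NLRC5 differed by at most 0.06 in size and ERAP1 by at most 0.10. Of all genes, wt tumours had 0.0462% called for CPA, A3 had 0.352%, D3 had 0.231% and D4 had 1.03%, and at an unadjusted p under 0.05 these shares were 3.38%, 6.68%, 12.8% and 21.9%. ERAP2 in D4 was nearest to the threshold, at 0.36 ± 0.12 (SE, adjusted p 0.11), and it alone had an unadjusted p under 0.05. Without D4 control replicate 2 it was called (0.44, adjusted p 0.045), and with the same 4 distant arrays left out it was 0.08 (adjusted p 0.91). The CPA difference in each clone was also set against that in wt. None of these 12 tests was called (0 at an unadjusted p under 0.05). Of all genes 0.0% was called, and at an unadjusted p under 0.05 3.2% were in A3, 6.61% in D3 and 7.33% in D4. For B2M in D4 the difference between the CPA effects was 0.06, with a 95% interval from -0.27 to 0.38.

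Other genes of the pathway came from lists of related genes. Against wt, 18.5% (A3), 18.1% (D3) and 20.1% (D4) of all genes were called without CPA. With CPA these shares were 16.3%, 16.4% and 15.1%, and the counts called in each list stand beside them. Of 5 chaperones of the endoplasmic reticulum that fold or load class I molecules, or are related to tapasin, 1 was called in each comparison with wt, and it was HSPA5. In untreated tumours it differed by -0.31 ± 0.08 (SE) in A3, -0.25 in D3 and -0.29 in D4. CALR (-0.14), CANX (-0.15) and TAPBPL (-0.15) were not called in A3. For all 5 the median in A3 was -0.15, against -0.50 for the 4 members and 0.04 for all genes.

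Proteasomes make the peptides that ERAP1 and ERAP2 trim. PSMB5 (0.43 ± 0.11 SE), PSMB6 (0.50 ± 0.13 SE) and PSMB7 (0.28 ± 0.07 SE), the constitutive catalytic subunits, all rose in untreated A3, with adjusted p-values of 0.0038, 0.0044 and 0.0042. In untreated D3 and D4 only PSMB6 passed (0.44 and 0.37), and in treated tumours 0 of 3 did. Of 3 interferon-inducible parts of the proteasome, PSMB10, the catalytic subunit of the immunoproteasome outside the MHC region, was higher in untreated D3 (0.39 ± 0.09 SE) and D4 (0.29 ± 0.09 SE) and was not called in A3 (0.20, adjusted p 0.18). PSME1, a subunit of the activator cap, was lower in treated D3 (-0.35) and D4 (-0.31), and PSME2 was called in no comparison with wt.

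Other peptidases that trim or destroy cytosolic peptides were mixed. Of 6 measured, THOP1 (0.42 ± 0.10 SE) and BLMH (0.35 ± 0.08 SE) were higher in untreated A3 and NPEPPS (-0.29 ± 0.09 SE) lower, while LAP3 (-0.09, adjusted p 0.46) was not called. In untreated D3 the same 3 were called (0.47, 0.48 and -0.30), and in D4 THOP1 (0.37) and BLMH (0.27). With CPA all 3 were called in A3 and D3, in the same directions, and BLMH alone in D4 (0.40). Among 8 transcription factors that act on class I promoters, IRF1 was lower (-0.37 ± 0.12 SE) and RFXANK higher (0.39 ± 0.09 SE) in untreated A3, and neither IRF2 (-0.24, adjusted p 0.16) nor NFKB1 (0.09, adjusted p 0.55) was called there. NFKB1 was higher in untreated D3 (0.23, adjusted p 0.031). In treated tumours IRF1 (-0.40) and CREB1 (-0.28) were lower in D3, and IRF1 (-0.38) and IRF2 (-0.31) in D4. Of the MHC class II list, only CIITA, the class II counterpart of NLRC5, HLA-DQA1 and HLA-DQB1 were measured, and 0 of the 3 was called in any comparison with wt.

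Genes induced by interferon were lower in the clones, with larger differences than the members. Of 29 measured, 24 fell in untreated A3, 27 in D3 and 26 in D4, and 0 rose. The medians were -1.45, -1.35 and -1.39. IFI44L (-2.82 ± 0.27 SE), IFIT2 (-1.45 ± 0.15 SE), OAS2 (-1.66 ± 0.18 SE) and IFIT3 (-1.51 ± 0.16 SE) had the smallest p-values in A3. In treated tumours 24, 26 and 26 fell. The 4 members moved the same way by medians of -0.50, -0.53 and -0.58 without CPA. This fall of interferon-induced genes in the clones was known from earlier work on these data when the list was chosen, and is not independent support.

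**Figure D3:**
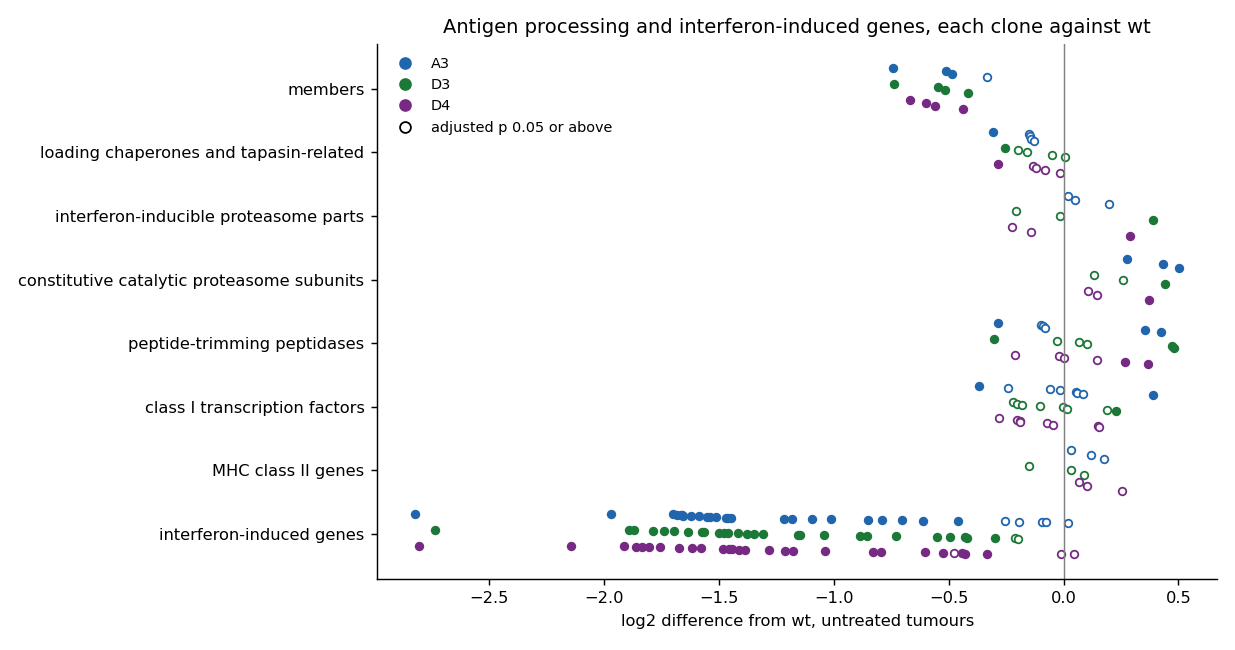
Log2 differences from wt in untreated tumours (horizontal axis) for the 4 member genes and the lists of related genes, in A3, D3 and D4. Filled points passed an adjusted p of 0.05. The members lie between -0.74 and -0.33, to the left of the chaperones, proteasome subunits and peptidases and to the right of most interferon-induced genes.

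Markers of other cells were read in the same comparisons, where 18.5% (A3), 18.1% (D3) and 20.1% (D4) of all genes were called without CPA. Of 9 leukocyte markers, CD8A was lower and CD68 higher in untreated A3, none was called in D3, and LYZ was lower and CD68 higher in D4. The list's summed log2 level ran from 50.03 to 52.0 in untreated wt arrays, from 50.7 to 52.1 in A3, from 50.8 to 51.3 in D3 and from 50.7 to 52.4 in D4, and with CPA from 49.8 to 51.3 in wt and from 50.1 to 52.2 over the clones. Of 7 endothelial markers, KDR and PECAM1 were lower in A3, KDR in D3, and in D4 KDR was lower and TEK higher. Summed levels were 42.0 to 43.4, 41.1 to 41.6, 41.2 to 42.1 and 41.4 to 42.7 in the order wt, A3, D3, D4. Of 7 fibroblast markers, COL3A1 and LUM were lower in A3, COL3A1 was lower and COL1A1 higher in D3, and COL3A1 was lower in D4. Their sums were 48.6 to 49.1, 46.6 to 48.1, 48.1 to 49.1 and 47.4 to 48.9 in the same order. LUM averaged only 3.15 over all arrays, above the means of 1.11% of genes, and LYZ 4.43, above 8.1%. How much of such dim signal is background was not tested, and the sums include it. Of 5 carcinoma epithelial markers, CDH1, KRT8 and EPCAM were lower in A3, and CDH1 in D3 and D4, with sums of 45.4 to 46.6, 44.2 to 44.6, 45.04 to 46.0 and 44.3 to 46.2. The part of these cells in the fall of the members was not tested.

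Among the wt tumours the members also differed from array to array, and their levels were set against those of the interferon-induced genes. The mean log2 level of the 29 genes was highest in wt CPA replicate 3, at 8.53, and lowest in wt CPA replicate 1, at 7.78. B2M was highest (11.15) and lowest (10.63) in these same arrays, and so was ERAP1 (8.70 and 8.21). NLRC5 was highest in CPA replicate 3 too (7.58), followed by control replicates 3 and 1, and lowest in control replicate 4. Over the 8 wt arrays Pearson's r with the interferon mean was 0.882 for B2M, 0.884 for NLRC5, 0.906 for ERAP1 and 0.449 for ERAP2, with exact two-sided permutation p-values of 0.0075, 0.0017, 0.0049 and 0.25. Spearman's rho was 0.929, 0.809, 0.762 and 0.333 (exact permutation p 0.0022, 0.022, 0.037 and 0.43). Over the 8 relations computed, adjusted p-values (exact permutation tests in wt) were 0.020, 0.014, 0.020 and 0.29 for r and 0.018, 0.087, 0.098 and 0.47 for rho. Without the 2 arrays farthest from the median interferon mean, r was 0.750, 0.876, 0.796 and 0.250. An r as high was found for 0.514%, 0.502%, 0.341% and 13.0% of all genes. Over the 23 clone arrays r was 0.408 for B2M, -0.273 for NLRC5, 0.318 for ERAP1 and 0.213 for ERAP2, with permutation p-values of 0.055, 0.21, 0.13 and 0.33. Within a treatment wt had only 4 arrays, too few for a value. This relation was looked at after the data had been seen, and whether the spread of wt arrays is technical was not tested. The interferon list was chosen with earlier results of these data known, so the relation is not independent support. The permutations mixed control with CPA arrays and, over the clone arrays, A3 with D3 and D4.

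**Figure D4:**
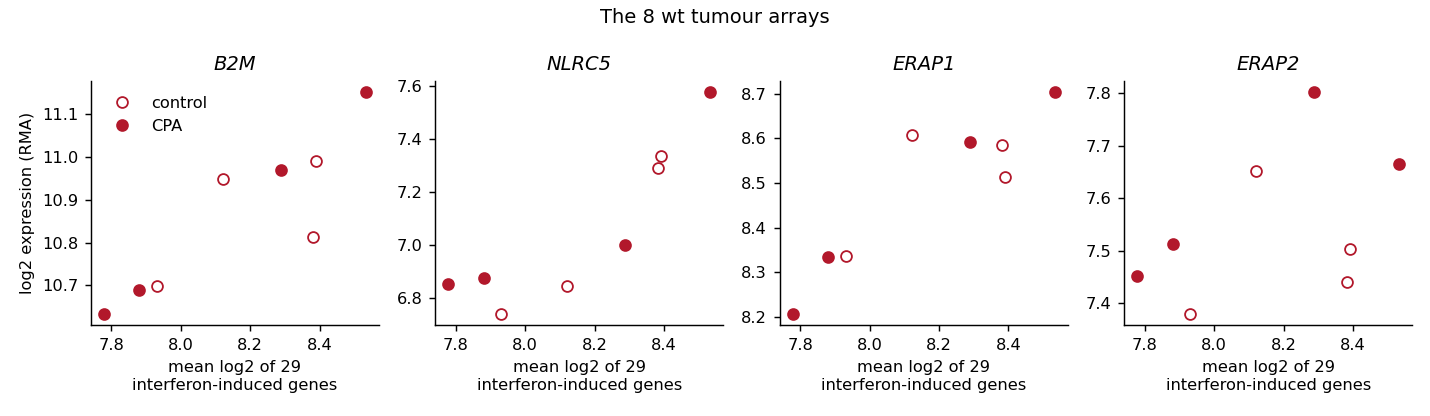
Log2 level of each gene (vertical axes) against the mean log2 level of 29 interferon-induced genes (horizontal axes) in the 8 wt arrays, open circles for control and filled for CPA. B2M, NLRC5 and ERAP1 run upward with the interferon genes (r of 0.882, 0.884 and 0.906), and ERAP2 is scattered (0.449).

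The members were set against each other by the root mean square difference of their centred group means over the 8 groups. NLRC5 and ERAP1 were the closest pair (0.08 on the log2 scale) and B2M and ERAP2 the farthest (0.17). Among all other genes, those whose group means ran closest to B2M were TMEM263 (0.05), the butyrophilin gene BTN3A1 (0.05) and EPB41L5 (0.05). TMEM263, the closest, averaged 9.26 in untreated wt and 8.61, 8.59 and 8.59 in untreated A3, D3 and D4. BTN3A1 averaged 7.47 in untreated wt and 6.58, 6.62 and 6.70 in untreated A3, D3 and D4. Closest to NLRC5 were OLFML2B (0.02), the sorting receptor SORL1 (0.02) and IFI35 (0.03), an interferon-induced gene. OLFML2B, the closest, averaged 5.91 in untreated wt and 5.37, 5.38 and 5.35 in untreated A3, D3 and D4. IFI35 averaged 8.13 in untreated wt and 7.69, 7.56 and 7.53 in the clones. Closest to ERAP1 were LRATD2 (0.03), SEC24D (0.03), part of the coat that carries proteins out of the endoplasmic reticulum, and LINC02210 (0.03). Closest to ERAP2 were the G protein subunit gene GNA14 (0.03), BTAF1 (0.04) and SLC41A2 (0.05). GNA14, like ERAP2, averaged lowest in untreated D4 (6.84) and higher in treated D4 (7.20). These are descriptions over 8 group means from shared arrays and carry no test.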

How the data were processed

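Total RNA, biotin-labelled, was read on Affymetrix Human Gene 1.0 ST arrays. The authors deposited log2 values for 23989 probe sets. The submitters' processing notes name RMA as the tool, and its version is not given in the sources used here. Of 32 planned arrays, 1 of untreated A3 was left out by the submitters. Of the probe sets, 17624 carried 1 gene symbol, 411 several and 5954 none; the set with the highest mean was kept per gene, and 17290 of 17314 genes were matched to RefSeq (GRCh38.p14) for names. Array medians lay between 6.59 and 6.73.

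The test was limma (3.58.1, R 4.3.3) in 1 fit of 8 group means over 31 arrays (23 residual degrees of freedom), with Benjamini-Hochberg adjustment over all genes and a threshold of 0.05. The fit was tested on simulated data, in which each gene had normal noise of the same SD in every group. A spread that differs between groups, as that of NLRC5 did, was not simulated. The labels do not say that arrays are separate animals, so p-values describe only how these samples vary, which may be technical. The number of arrays limits precision. Comparisons with wt share the wt arrays. All members were named, with up to 4 genes per list by smallest p in untreated A3 against wt, other list genes that were called in a comparison with wt, and the 3 closest genes per member. The genes and lists were chosen with earlier results of these data known. Another list of related genes is not reported here.

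Same-numbered arrays of 2 groups deviated together in every pair (r 0.155 to 0.408) for untreated D3 and wt and (0.214 to 0.425) for untreated D4 and D3. By a cutoff on the lowest r, they did not in the other 13 pairs of groups compared. This pairing is read from the data, since the labels give only numbers. It is weak, as differently numbered arrays reached r 0.309 for untreated D3 and wt and 0.530 for untreated D4 and D3. For treated and untreated wt, same-numbered arrays ran from 0.019 to 0.388, and the lowest missed the cutoff. The alternatives, whose effect is given below, changed the samples in the fit, the block, the normalization, the centring, the variance prior, the filter on dim genes, the choice of probe set and the array weights, and left out arrays.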

Additional observations from a re-analysis of the deposited data

Results flagged for a closer look

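Of 28 groups of 4 arrays examined over the 4 genes, 3 held an array far from the others by Dixon's test, where chance gives about 1 in 20. They were NLRC5 in a treated A3 array (6.58, with the others near 6.56), NLRC5 in a treated D4 array (6.47, with the others at 6.42), and ERAP1 in an untreated D4 array (8.26, with the others between 7.99 and 8.02). The NLRC5 arrays stood apart only because the rest lay very close together. No difference of the CPA effect between a clone and wt was called for any of the 4 genes.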

How the results depend on the processing

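With the replicate number as a block (replicate block), 3 members were called in untreated A3, 4 in untreated D3 and D4, 3 in treated A3, 4 in treated D3 and 3 in treated D4 against wt, and 0 in the other comparisons. ERAP2 in treated A3 was then -0.34 (adjusted p 0.063) and in treated D4 -0.36 (adjusted p 0.051, limma). Leaving out 1 array at a time, the number called against wt was 3 to 4 in untreated A3, 4 in untreated D3 and D4, 2 to 4 in treated A3, 4 in treated D3 and 2 to 4 in treated D4. It was 0 to 1 for CPA in D4 and 0 in the other comparisons. Over all alternatives 1278 values of single genes kept their side of the threshold, 20 called values lost it, 2 gained it and 0 called values changed sign. All 20 losses were among comparisons with wt and concerned NLRC5 (1), ERAP1 (3) and ERAP2 (16), and B2M kept its call against wt under every alternative run. Leaving out the 4 arrays farthest from their group mean was chosen after seeing the data.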
